A study of Homo sapiens with 8 samples.

Results

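The regions described here held MED1 and SMC1A but no NIPBL in GM12878 cells. Overlapping peaks of all 6 lists were merged on chromosomes 1 to 22 and X, which gave 92867 merged regions. A merged region was selected by its peak calls: it held a peak of both MED1 lists and of both SMC1A lists, and no peak of either NIPBL list. This left 1260 regions. They were chosen by the peak calls, so the presence of MED1 and SMC1A and the absence of NIPBL are not findings, and the strength and width of the peaks, which come from the same calls, are given as descriptions without a test.

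GM12878 is an established lymphoblastoid line of immortalised B lymphocytes, and the cells were untreated. All groups share this 1 line. Each of the 3 proteins was profiled by ChIP-seq in 2 libraries, with the pool of 2 whole cell extract libraries as the control of every list. The labels do not state whether the replicates are separate cultures, and their spread may therefore be technical only. The cell type could not be checked against marker genes, because no gene annotation of the files' build, hg19, was used here. For the same reason regions are named by position (1-based, hg19), and no base sequence is printed.

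Cohesin is a ring-shaped complex that holds stretches of DNA together in loops, and SMC1A is one of the core subunits of the ring. NIPBL is the factor that loads cohesin onto DNA and stimulates its movement along it. Loaded cohesin slides away from where it was loaded and accumulates at sites bound by the insulator protein CTCF, where it gives strong ChIP-seq peaks. MED1 belongs to Mediator, which carries signals from transcription factors at enhancers and promoters to RNA polymerase II, and Mediator and NIPBL are known to meet at active enhancers and promoters.

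NIPBL was listed at most regions that held the other proteins. Of 7872 regions with both MED1 and both SMC1A lists, 1260 (16.0%, exact 95% binomial interval 15.2 to 16.8) had no NIPBL peak, 1317 had a peak of 1 NIPBL list, and 5295 (67.3%, 66.2 to 68.3) had both. Without SMC1A the picture differed: of 3987 regions with both MED1 lists and no SMC1A peak, 57.5% (55.9 to 59.0) had no NIPBL peak. Of 35600 regions with both SMC1A lists and no MED1 peak, 95.9% (95.7 to 96.1) had none. Over all 92867 merged regions the share without NIPBL was 76.9%. Intervals cover counting error only, and neighbouring regions are not independent. With 2 libraries per protein, an exact permutation test between proteins could not give a p-value under 0.33, so no test was run. Most medians of peak strength below are given for each library. Shares carry the binomial interval, which counts regions as units and does not measure the spread between replicates.

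Single libraries set the number of these regions. Without NIPBL replicate 1, 2194 regions qualified, and without NIPBL replicate 2, 1649. Without MED1 replicate 1, whose list of 18131 peaks was much shorter than the 45046 of replicate 2, 5125 qualified, which was 35.8% of the regions with MED1 and SMC1A. Without SMC1A replicate 1, 2056 qualified. Each of these settings asks for, or bars, 1 list fewer and so admits more regions by construction. With each list cut to its 15357 strongest peaks, the length of the shortest list, 92 regions qualified. Of the 1260 regions, 73 overlapped one of these 92.

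The MED1 peaks in these regions were weaker than those at regions with NIPBL, in both MED1 libraries. Fold enrichment, the authors' ratio of ChIP signal to local control at the peak summit, ran from 1.91 to 21.5 in MED1 replicate 1 with a median of 3.50 over the 1260 regions, and from 2.40 to 39.3 with a median of 6.56 in replicate 2. At regions with both NIPBL lists the medians were 4.80 and 10.1. As percentiles within each library's own list, the medians were 37.5 and 74.0 without NIPBL, 49.8 and 80.4 with 1 NIPBL list, and 75.9 and 91.4 with both. The order was the same in both MED1 libraries. MED1 peaks at regions with neither SMC1A nor NIPBL were slightly weaker still, with median fold enrichments of 3.39 and 5.98.

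SMC1A showed no such deficit. Its fold enrichment at the 1260 regions ran from 2.19 to 57.5 with a median of 5.26 in SMC1A replicate 1, and from 2.33 to 68.6 with a median of 6.13 in replicate 2. The medians at regions with both NIPBL lists were 4.48 and 5.47, and at regions with 1 NIPBL list 4.23 and 5.10. The upper quartiles were farther apart: 10.4 and 12.5 without NIPBL, against 6.11 and 7.53 with both NIPBL lists. At the 34128 regions that held both SMC1A lists alone the medians were 11.6 and 13.1. By fold enrichment the SMC1A peaks beside MED1 were thus the weaker ones in either case. Fragment pileups at the summits, recovered from the deposited values, had medians of 29 and 44 in the MED1 libraries and 34 and 40 in the SMC1A libraries. The recovered control estimate had medians of 5.64 and 5.57 fragments in the SMC1A libraries, against 5.93 and 5.85 at regions with both NIPBL lists. At regions with SMC1A alone the control was lower, at 3.29 and 3.25, and the SMC1A pileups were 50 and 56. The part of the lower control in their higher fold enrichment was not tested.

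**Figure D1:**
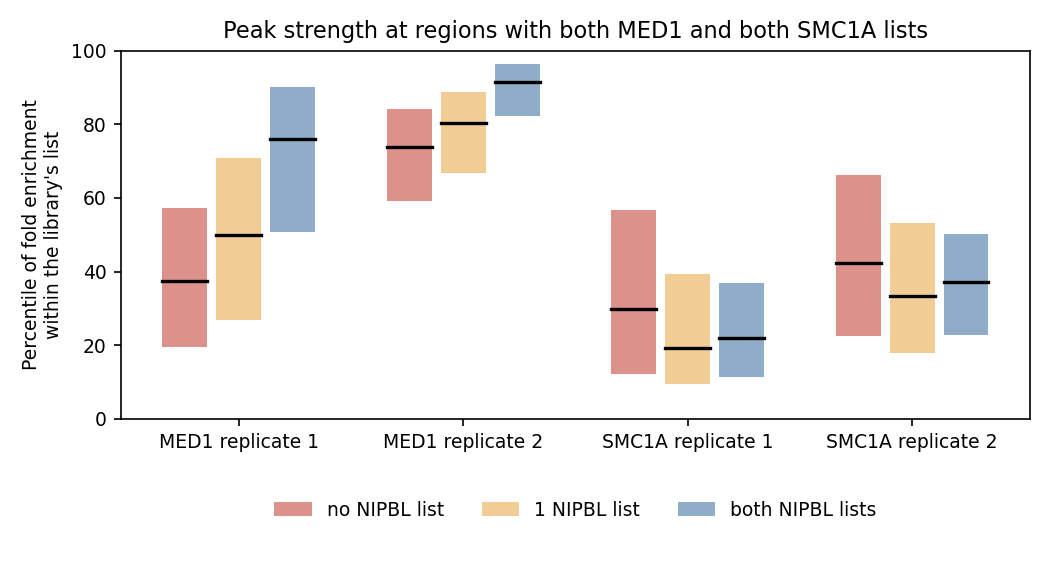
Percentile of fold enrichment within each library's list (vertical axis, 0 to 100) for the strongest peak of each region, by library (horizontal axis). Boxes span the quartiles and black lines are medians over 1260 regions with no NIPBL list, 1317 with 1 and 5295 with both: MED1 medians are lowest without NIPBL (37.5 and 74.0), while SMC1A medians without NIPBL (29.8 and 42.2) lie above the other groups.

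The 1260 regions spanned a wide range of SMC1A strength, and MED1 changed little along it. By the mean percentile of both SMC1A libraries, 370 lay in the weakest 20 percentiles of the lists, 323, 232 and 218 in the next 3 bins, and 117 in the top 20. Across these 5 bins the median SMC1A fold enrichment of replicate 1 went from 3.35 to 22.6 and that of replicate 2 from 3.69 to 26.3. The median MED1 fold enrichment stayed between 3.42 and 3.68 in replicate 1 and between 6.32 and 6.76 in replicate 2. Across the 1260 regions the rank correlation of MED1 and SMC1A percentiles was 0.096 in replicate 1 and 0.017 in replicate 2, whereas the 2 SMC1A libraries correlated at 0.916 and the 2 MED1 libraries at 0.428. The MED1 to SMC1A correlation was also near 0 with 1 NIPBL list, at 0.071 and 0.079, and was 0.211 and 0.260 with both. The MED1 libraries correlated at 0.591 with 1 NIPBL list and at 0.833 with both. These correlations are across regions of the same libraries, which are not independent replicates. The quartiles of MED1 replicate 2 fold enrichment spanned 5.34 to 8.05 without NIPBL and 7.68 to 13.9 with both NIPBL lists, and the part of this range in the correlations was not tested.

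The share without NIPBL fell steeply along MED1 strength. The 7872 regions were ranked by the mean percentile of both MED1 libraries and cut into 5 classes of equal size, from class 1 (weakest) to class 5 (strongest). The share without NIPBL was 35.8% in class 1 (33.4 to 38.2), 24.8% in class 2, 13.2% in class 3, 5.02% in class 4 and 1.21% in class 5 (0.728 to 1.88). Ranked by MED1 replicate 1 alone it went from 32.8% to 1.33%, and by replicate 2 alone it fell to 1.27%. Width was not held equal between classes. With both NIPBL lists the median width was 843 bp in class 1 and 1679 bp in class 5. The part of width in the shares by strength was not tested.

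Along SMC1A strength the share was lowest in the middle. It was 16.9% in SMC1A class 1 (15.1 to 18.9), 11.6% in class 2, 10.6% in class 3, 13.7% in class 4 and 27.2% in class 5 (25.0 to 29.4). The upturn in class 5 was seen with either SMC1A library alone, at 26.9% and 26.8%. Taken by both measures, regions with the weakest MED1 and the strongest SMC1A lacked NIPBL in 47.6% of 374 cases (42.4 to 52.8), against 27.6% of 489 (23.7 to 31.8) with the weakest MED1 and the weakest SMC1A. With the strongest MED1 the share was at most 2.44% in each of the 5 SMC1A classes.

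**Figure D2:**
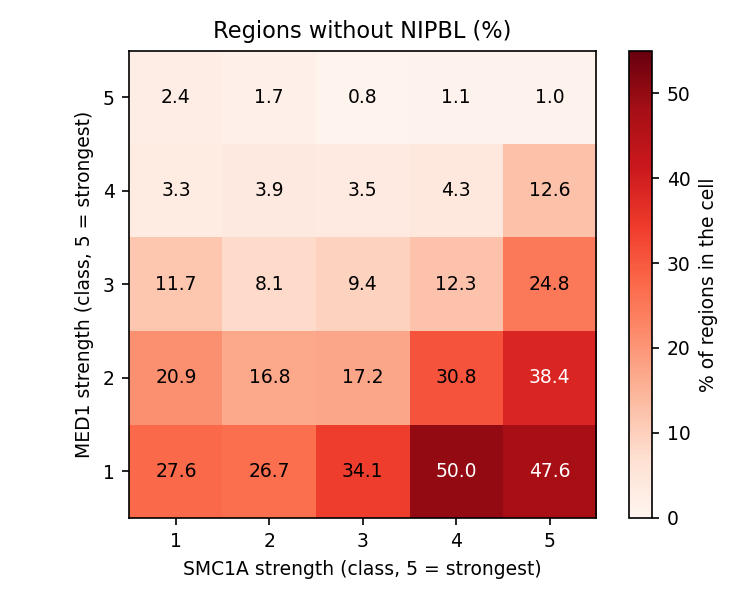
Percentage of regions with both MED1 and both SMC1A lists that had no NIPBL peak, by class of SMC1A strength (horizontal axis) and of MED1 strength (vertical axis), each with class 5 as the strongest. Numbers in the cells are the percentages, which are highest at weak MED1 with strong SMC1A (50.0 and 47.6) and lowest along the top row (0.836 to 2.44).

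At like MED1 strength, SMC1A was higher where NIPBL was missing when all 6 lists were used. In MED1 classes 1 to 4 the median SMC1A fold enrichment of replicate 1 was 4.98, 5.34, 5.62 and 5.71 without NIPBL, against 3.89, 4.19, 4.35 and 4.40 with both NIPBL lists. In class 5, which held 19 regions without NIPBL, it was 5.04 against 5.16. Averaged over classes 1 to 4 the SMC1A percentile was 11.9 points higher without NIPBL (SD 0.744 between the 2 SMC1A libraries). The difference turned in 2 settings. It was -0.387 points without SMC1A replicate 1 and -8.13 points with each list cut to its 15357 strongest peaks. Without MED1 replicate 1 it was 5.04 points and without NIPBL replicate 1 it was 5.13.

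Regions without NIPBL were narrower than those with it. Their widths ran from 257 to 3112 bp with a median of 786 bp, against 863 bp with 1 NIPBL list and 1090 bp with both. Only 35 of the 1260 (2.78%) were wider than 2 kb, against 18.9% of the regions with both NIPBL lists. Several peaks of 1 SMC1A list lay in 17.1% of them and several of 1 MED1 list in 11.8%. Width is not independent of the rule, since a NIPBL peak adds its own length to a merged region. The share without NIPBL went from 25.2% in the narrowest of 5 width classes to 4.89% in the widest. In MED1 class 1 the median width was 738 bp without NIPBL, 747.5 bp with 1 NIPBL list and 843 bp with both. In class 2 these medians were 813.5, 879 and 833 bp. In class 5, with 19 regions without NIPBL, they were 1235, 1213 and 1679 bp.

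MED1 and SMC1A summits lay close together within these regions, which the rule favours by asking for peaks that merge. No distance to compare with was computed for summits placed freely in regions of this width. The strongest MED1 and the strongest SMC1A summit were a median of 89 bp apart in replicate 1 and 78.5 bp in replicate 2, and at most 100 bp apart in 701 and 750 of the 1260 regions. The error of a summit can be read from the replicates of 1 protein, which were a median of 57 bp apart for MED1 and 25 bp for SMC1A. The distance between the proteins was thus larger than that between replicates of either. The SMC1A summit lay inside a MED1 peak in 70.6% of the regions in replicate 1 and in 97.2% in replicate 2, whose MED1 peaks had a median width of 696 bp against 292 bp. Summits over 500 bp apart occurred in 129 and 106 regions. At regions with both NIPBL lists the MED1 to SMC1A medians were 71 and 57 bp. SMC1A summits of the 2 replicates were nearer to each other without NIPBL (25 bp) than with both NIPBL lists (46 bp), whereas MED1 summits were farther apart (57 against 35 bp) and MED1 peaks weaker. The part of peak strength in these distances was not tested.

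What a missing NIPBL peak means depends on the depth. A NIPBL peak needed a given number of fragments over the local control, and the control at each region was taken from the MED1 replicate 1 peak there, scaled by the ratio seen where MED1 replicate 1 and NIPBL summits were at most 100 bp apart. On that basis a summit needed a median of 19 fragments in NIPBL replicate 1 (range 9 to 73) and 17 in replicate 2 (9 to 65) to pass the weakest p-value in the list. As fold enrichment the medians were 2.43 and 2.52. The need differed between regions, and by this estimate NIPBL under a region's own level would not have been listed. Of regions with a NIPBL peak used for the scaling, 3 of 4369 and 6 of 4136 had fewer fragments than this estimate asks for. Those regions were all called and also set the ratio, so the counts do not check the estimate at regions without NIPBL.

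Listed NIPBL, which had passed the call by selection, had a median above that level in every MED1 class. At regions with both NIPBL lists the median pileup was 40 and 33 fragments and the median fold enrichment 4.76 and 4.63. In MED1 class 1 the NIPBL medians were 3.92 and 3.75 and the lower quartiles 3.29 and 3.22, while the level needed for a call at class 1 regions without NIPBL had a median of 2.34 and 2.48. Of the 617 class 1 regions with both NIPBL lists, 11 and 16 lay under those levels. Regions with a peak of 1 NIPBL list lay between: replicate 1 peaks had a median of 27 fragments (929 regions) and replicate 2 peaks 24 (388 regions). Their median fold enrichments were 3.44 and 3.61. Since both lists hold only peaks past a threshold, listed NIPBL could not lie far below it in any class. These values therefore do not show how much NIPBL was present at regions without a call.

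**Figure D3:**
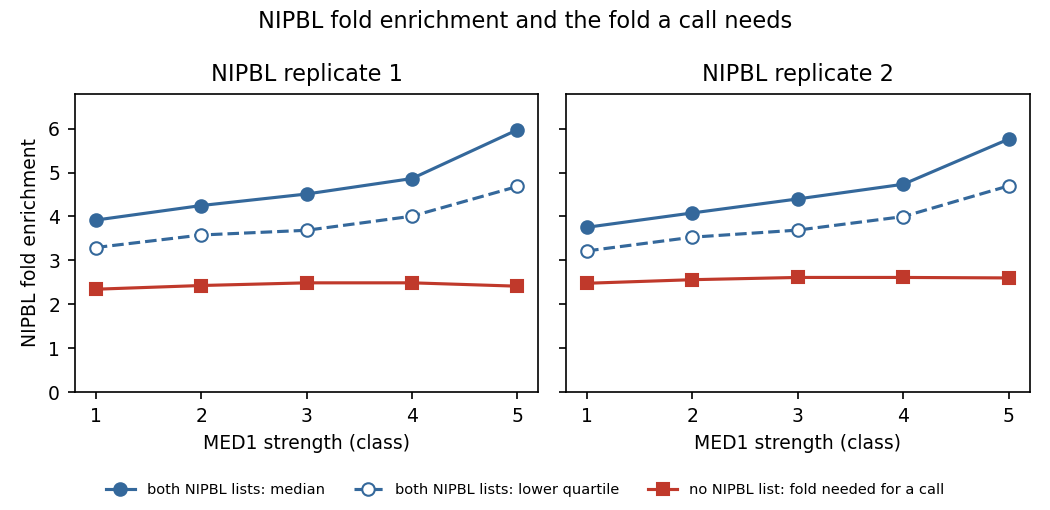
NIPBL fold enrichment (vertical axis) by class of MED1 strength (horizontal axis, class 5 strongest) in each NIPBL library. Listed NIPBL peaks had passed the call threshold by selection. Blue lines give the median and lower quartile at regions with both NIPBL lists, and red squares the median fold enrichment that a call needed at regions without NIPBL, which stays at 2.34 to 2.49 in replicate 1 and 2.48 to 2.61 in replicate 2 while the blue medians go from 3.92 to 5.97 and from 3.75 to 5.76.

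Although NIPBL was not listed in these regions, it was often nearby. The nearest NIPBL peak of either list was a median of 15252 bp away (quartiles 3423 and 50401 bp). It lay within 1 kb of 139 regions (11.0%, 9.35 to 12.9), within 5 kb of 31.0% and within 50 kb of 74.5%. The median was 17975 bp to NIPBL replicate 1 and 27019 bp to replicate 2. For regions with both MED1 lists alone, the share with NIPBL within 1 kb was 11.6% (10.4 to 13.0) and within 50 kb 62.8% (60.8 to 64.8). Regions with both SMC1A lists alone had it within 1 kb in 1.56% and within 50 kb in 39.2%. Among the 1260 regions the distance went with SMC1A strength, from a median of 7811 bp in the weakest SMC1A bin to 26632 bp in the strongest.

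The regions without NIPBL seldom lay beside each other. With neighbours at most 12.5 kb apart joined, 95 of 1260 (7.54%) shared a cluster with another one. The same joining put 10.2% of the 1317 regions with NIPBL in either list but not both in clusters of their own kind. That group is close in number to the 1260, and its share was only slightly higher. The share was 48.7% of the 5295 regions with both NIPBL lists and 17.2% of the 2292 regions with MED1 alone. The latter groups hold more regions, and the part of that number in their shares was not tested. The largest cluster, and the only one with 3 regions, lay at chr16:30661620-30670782. A region with all 6 lists lay within 12.5 kb of 252 of the 1260 (95% interval 17.8% to 22.3%).

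**Figure D4:**
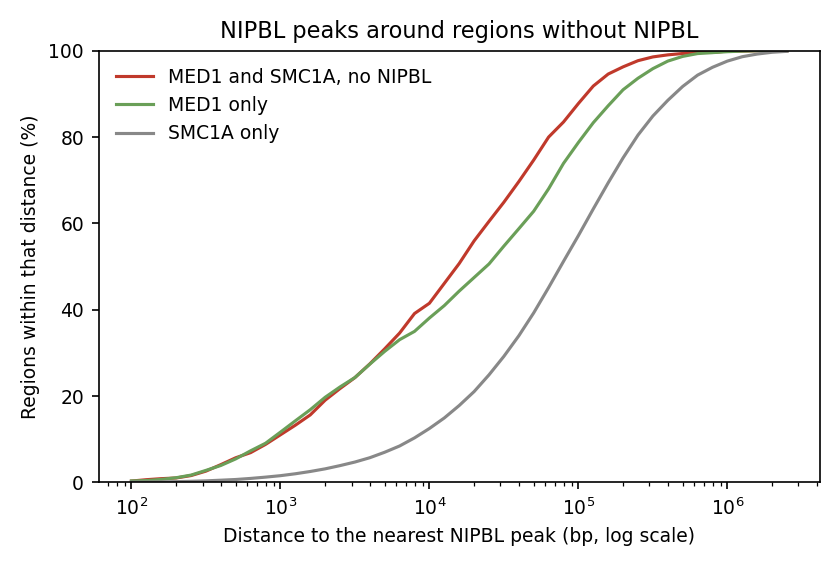
Cumulative percentage of regions (vertical axis) whose nearest NIPBL peak of either list lies within a given distance (horizontal axis, bp, log scale). Regions with MED1 and SMC1A (red) and with MED1 alone (green) run together up to 5 kb (31.0% and 30.4%) and part beyond it, and regions with SMC1A alone (grey) lie lower throughout (6.99% at 5 kb).

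The share without NIPBL varied between chromosomes. It was 26.2% on chromosome 22 (38 of 145, 19.3 to 34.2) and 22.7% on chromosome 17 (90 of 396, 18.7 to 27.2). On chromosome 19 it was 21.6% (75 of 348, 17.3 to 26.2). It was lowest on chromosome 4, at 10.3% (30 of 292, 7.04 to 14.3). Chromosomes 18, X and 13 followed, at 11.0%, 11.5% and 12.6%, and chromosome 2 had 12.8% (10.3 to 15.7). The intervals of chromosomes 2, 4, 17, 19 and 22 did not include the share of 16.0% over all 23, and those of the other 18 did. These intervals were not adjusted for the number of chromosomes, so some may miss the share by counting error alone. Given the share in each MED1 class, 21.8 regions would fall on chromosome 22 against 38 counted, 59.3 on chromosome 17 against 90, 56.6 on chromosome 19 against 75 and 51.6 on chromosome 4 against 30. With 1 library left out, the share on chromosome 22 was 1.34 to 1.69 times the genome share, that on chromosome 17 1.27 to 1.42 times, that on chromosome 19 1.21 to 1.41 times and that on chromosome 4 0.634 to 0.839 times. With each list cut to its 15357 strongest peaks, which left 92 regions without NIPBL, the ratio was 1.56 on chromosome 19, but 0.874 on chromosome 22 and 0.994 on chromosome 17, and none of the 92 lay on chromosome 4. Gene density and base composition at these regions were not measured.

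**Figure D5:**
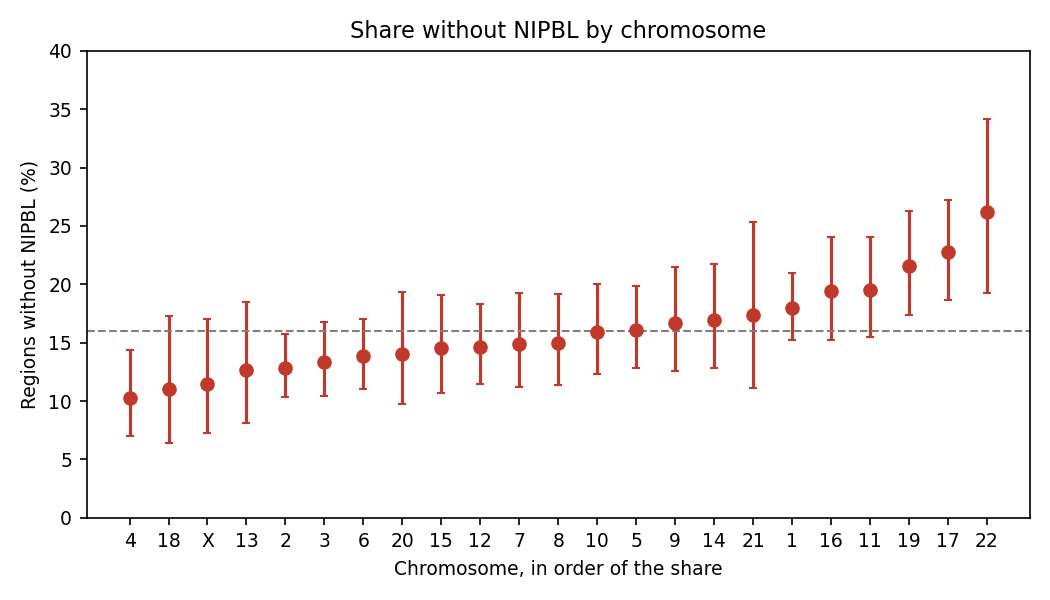
Percentage of regions with both MED1 and both SMC1A lists that had no NIPBL peak, by chromosome in order of the share. Points are shares, bars exact 95% binomial intervals and the dashed line the share over all chromosomes (16.0%), which the bars of chromosomes 17, 19 and 22 clear above and those of 2 and 4 below. The bars are not adjusted for the number of chromosomes.

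The strongest regions were taken by the mean percentile over the 4 MED1 and SMC1A libraries. Neither percentiles from lists of different lengths nor fold enrichments of different antibodies are on a common scale, so the values of MED1 and SMC1A are given side by side. The first, chr19:45981398-45982677, had MED1 fold enrichments of 5.70 and 11.8 in replicates 1 and 2 and SMC1A of 35.4 and 38.6, with the MED1 and SMC1A summits 527 and 529 bp apart. The second, chr22:39925094-39925744, had MED1 of 5.92 and 12.5 and SMC1A of 24.7 and 31.3, with summits 46 bp apart in both replicates. The next 2 lay on chromosome 19 as well. At chr19:13990779-13991607 SMC1A was 47.4 and 56.4 beside MED1 of 4.68 and 11.8. At chr19:41140335-41140807 SMC1A was 57.5 and 68.6, the highest in each SMC1A library among the 1260 regions, beside MED1 of 4.64 and 9.46.

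In the ninth of the 12 strongest regions, chr1:210546872-210548284, MED1 was 16.3 and 36.0 and SMC1A 17.1 in each replicate. Its MED1 pileups were 168 and 273 fragments. By the estimate above, a NIPBL call there needed about 22 and 20 fragments in the NIPBL libraries. MED1 and NIPBL fragments are not on a common scale, and NIPBL under that level was not measured. The nearest NIPBL peak was 29668 bp away. The others of the 12 lay on chromosomes 3, 5, 6, 8, 9 and 10, with SMC1A of 24.7 to 34.2 in replicate 1 and MED1 of 4.20 to 5.64.

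A few regions had very strong MED1 and weak SMC1A. At chr17:8076094-8077613 MED1 reached 21.5 and 37.6, with pileups of 254 and 345 fragments, and SMC1A was 2.96 and 3.18. By the same estimate a NIPBL call there needed about 24 and 22 fragments in the NIPBL libraries. The nearest NIPBL peak was 12665 bp away. At chr8:33370407-33371632 MED1 was 12.4 and 28.1 and SMC1A 2.89 and 3.98, with NIPBL 40692 bp away. At chr1:12113764-12114871 MED1 was 6.67 and 16.0, but a NIPBL peak lay 1103 bp away, and at chr11:121210591-121211475, with MED1 of 6.13 and 10.5, one lay 3396 bp away.

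Such strong MED1 without NIPBL was rare. MED1 exceeded 10-fold in both libraries at 5 of the 1260 regions without NIPBL. It did so at 9 of the 1317 with 1 NIPBL list and at 332 of the 5295 with both. The 19 regions without NIPBL in MED1 class 5 lay on 13 chromosomes, with MED1 of 5.79 to 21.5 in replicate 1 and 9.99 to 39.3 in replicate 2. A NIPBL call needed at most 2.69-fold there in replicate 1 and 2.98-fold in replicate 2. The 1490 regions of class 5 with both NIPBL lists had NIPBL medians of 5.97 and 5.76.

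The opposite extreme was strong SMC1A beside weak MED1. At chr12:131303176-131303949 MED1 was 2.47 and 3.24 and SMC1A 25.8 and 28.9. At chr19:44289191-44289927 MED1 was 2.63 and 3.02 and SMC1A 22.8 and 29.7. At chr3:64016267-64016893 and chr11:66095478-66096609 SMC1A of replicate 1 was 30.3 and 34.4, and MED1 of replicate 1 was 2.90 and 3.17. In replicate 2 SMC1A was 34.4 and 37.2 there, and MED1 was 3.85 and 4.20.

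The widest regions held separated MED1 and SMC1A summits or lay near NIPBL. At chr7:101457142-101460253, 3112 bp wide, the summits were 1867 and 1638 bp apart and a NIPBL peak lay 635 bp outside. At chr10:102756193-102759293 they were 1544 and 1363 bp apart, with NIPBL 618289 bp away. At chr18:74841986-74845058 and chrX:38662666-38665545 NIPBL lay 1332 and 2051 bp away. The regions farthest from any NIPBL peak were chr1:95699490-95700043, at 1386290 bp, where MED1 was 3.12 and 6.31 and SMC1A 9.99 and 12.6, and chr7:144532608-144533383, at 942583 bp, where MED1 was 4.10 and 8.05 and SMC1A 4.78 and 4.27.

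Few regions stood at the edge of the lists. The −log10 q of the strongest peak was under 2 in 17 regions for MED1 replicate 1, in 8 for SMC1A replicate 1 and in 1 each for the other 2 libraries. The 4 regions just inside the rule had MED1 replicate 1 peaks with −log10 q of 1.42 to 1.43 and fold enrichments of at most 2.30, at chr8:28558697-28559635, chr9:75124529-75124937, chr1:25246954-25247624 and chr2:3383178-3384087. The 4 just outside held a NIPBL replicate 2 peak with −log10 q of 1.43 to 1.54. Their NIPBL fold enrichments were 2.56 at chr1:9195280-9195981, 3.09 at chr14:77466599-77467212, 2.22 at chr9:4984441-4985887 and 2.45 at chr8:61565708-61566808.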

How the data were processed

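The 6 deposited peak lists were used (2 libraries each of MED1, SMC1A and NIPBL). Build hg19, MACS2 2.1.0, BWA 0.7.12 and Trimmomatic 0.33 are named in the submitters' processing notes. No source used here gives their settings. Peaks were, per the labels, called by the authors for each ChIP library on its own against the pooled whole cell extracts. Deposited columns are a fold enrichment (ratio), −log10 p and −log10 q, a score, which was not used, and a summit offset in bp. Peaks overlapping by at least 1 bp were merged. The strongest peak of each library by fold enrichment stood for a region, ranked as a percentile within its list. Peaks on other sequences (12 to 58 per list) were left out.

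Read totals were not used here. The summit pileup k and control estimate were solved from fold = (k + 1) / (control + 1) and the Poisson p-value, with whole k, within 0.001 in −log10 p for 100% of peaks, and the solution and the merging were checked on simulated data. The lowest pileups in a list were 7 to 11 fragments. The fragments that a NIPBL call needs were computed at the weakest −log10 p of each list (3.74 and 3.95). They leave out the caller's minimum length and rest on a control ratio whose 5th to 95th percentiles were 0.772 to 1.21 and 0.656 to 1.00.

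Regions, classes and named positions follow rules chosen with earlier results of these data known. Named are the 12 strongest regions, the 4 most MED1-rich, the 4 most SMC1A-rich, the 4 widest, the 2 farthest from NIPBL, and 4 each just inside and outside the rule. The cluster at chr16:30661620-30670782 was named after its values were seen. Planned motif, gene and marker counts needed a genome or annotation of hg19 and were not run. Python 3.11.15, NumPy 2.4.6, pandas 2.3.3 and SciPy 1.17.1 were used.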

Additional observations from a re-analysis of the deposited data

How the results depend on the processing

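The number of regions stayed within 1.5 times of 1260 with peaks of −log10 q of at least 2, an overlap of at least 100 bp, peaks up to 200 bp apart merged, no NIPBL peak within 1000 bp, and summits at most 200 bp apart. It was 92 with every list cut to its 15357 strongest peaks, where 20.8% of regions lacked NIPBL and the SMC1A percentile was 53.5. That setting removes weak SMC1A peaks by construction. The share without NIPBL was 14.2% with no NIPBL peak within 1000 bp and 14.2% with summits at most 200 bp apart. With 1 library left out the number ran from 1382 to 5125, the share from 16.8% to 35.8% and the SMC1A percentile from 24.5 to 46.6. The MED1 percentile, 55.7 as the mean of 37.5 and 74.0 in its 2 libraries, was 45.5 without MED1 replicate 1, 36.8 without MED1 replicate 2 and 43.5 with lists of 15357 peaks, and the spread between its libraries is too wide to judge its stability. With lists of 15357 peaks the chromosome 22 and 17 shares were 0.874 and 0.994 times the genome share, and the SMC1A difference at like MED1 turned to -8.13 points. With 1 library left out that difference ran from -0.387 (without SMC1A replicate 1) to 9.57. Over all settings the MED1 to SMC1A summit distance ran from 59.5 to 92.5 bp and the distance to NIPBL, as the mean of the medians to each NIPBL list, from 15843 to 38121 bp. The chromosome ratios and the SMC1A difference were chosen after seeing the data. No paired analysis was possible because the values are descriptions that come from no test. The planned motif test, with its block and windows, needed a genome of hg19 and was not run. The fragments that a NIPBL call was estimated to need ranged over the regions from 9 to 73 and from 9 to 65 in the NIPBL libraries, and weaker NIPBL cannot be seen.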

Other observations

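Many more regions without NIPBL missed the rule by 1 list. MED1 replicate 1 alone was missing at 3864 regions that held MED1 replicate 2 and both SMC1A lists, while MED1 replicate 2 alone was missing at 14. SMC1A replicate 1 alone was missing at 796 regions and SMC1A replicate 2 alone at 124.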
